A study of Mus musculus with 7 samples.

Results

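The genes described here are 10 members of 2 linked groups, namely the Id repressors Id1, Id2 and Id3, and the Notch pathway genes Notch1, Notch2, Notch3, Jag1, Hes1, Hey1 and Heyl. They were chosen by name, with no measured value in the rule, as every row of the deposited expression table whose gene symbols include one of them. Each gene had its own row, so they make up 10 of 11642 rows. C2C12 cells are an established mouse myoblast line that forms multinucleate myotubes when serum is lowered. All 4 RNA-Seq samples were C2C12 cells that received an siRNA in growth medium, were moved to differentiation medium and were harvested on day 2 of differentiation. In 2 of them (si-SCR 1 and si-SCR 2) the siRNA was a scramble, and in the other two (si-SMaRT 1 and si-SMaRT 2) it was siRNA #1 against lnc-SMaRT, a long non-coding RNA expressed in muscle cells. The study states that 2 independent populations of this 1 line were used, and whether each population received both siRNAs is not given in the sources used here. The depletion rests on 1 siRNA sequence, so an effect of lnc-SMaRT and one of the siRNA itself cannot be told apart. The series also holds RNA pulled down with probes against lnc-SMaRT or LacZ, in 1 library each.

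Id proteins are helix-loop-helix proteins without a DNA-binding region. They bind the E proteins that MyoD and myogenin need as partners, and so hold myoblasts back from differentiation. Their genes are classical targets of BMP signalling through SMAD1, SMAD5 and SMAD8. Notch receptors are activated by Delta or Jagged ligands on a neighbouring cell, are cut by ADAM proteases and γ-secretase, and release an intracellular part that joins RBPJ and Mastermind on DNA. In muscle the pathway keeps satellite cells and myoblasts undifferentiated through Hes and Hey repressors, among them Hes1, Hey1 and Heyl.

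The recovered reads summed to between 10941826 and 14260911 per sample. Lnc-SMaRT (Gm14635, minus strand of chromosome X from 12339782 to 12354996 in GRCm38) had an RPKM (reads per kilobase of gene, scaled to the size of the library) of 19.1 and 15.9 in the controls, and of 2.88 and 3.65 in si-SMaRT 1 and 2. It fell by 2.39 on the log2 scale (SE 0.28, limma adjusted p = 0.000882). All 8 markers of differentiated muscle were expressed, with a summed RPKM of 13373 to 14438 in si-SCR and 6551 to 8888 in si-SMaRT. The si-SMaRT samples stood apart from each other. In the study's read statistics, si-SMaRT 1 lost a far larger part of its read pairs to the rRNA and tRNA filter than any other sample. The part of this loss in the differences between samples was not tested. On the log2 scale, si-SMaRT 2 minus si-SMaRT 1 tracked how GC-rich a gene is, with a Spearman's rho of −0.847 over 10400 genes, which do not count as replicates. For si-SCR 2 minus si-SCR 1 the rho was 0.380, and for the log2 fold change of si-SMaRT over si-SCR it was −0.290. For this reason the fold changes of the 10 members are given also with this trend removed, and with a sample left out where that ends a call or turns its direction.

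In control cells Id2 had the highest level of the 10 genes and Hey1 the lowest. The mean RPKM of si-SCR was 22.2 ± 1.36 (SD, n = 2) for Id2, 13.6 ± 0.697 for Hes1, 13.3 ± 1.1 for Id1, 11.1 ± 2.20 for Heyl, 8.85 ± 1.47 for Notch3 and 8.02 ± 1.83 for Notch2. Below these stood Notch1 at 3.80 ± 0.864, Id3 at 3.06 ± 0.204, Jag1 at 1.39 ± 0.390 and Hey1 at 1.08 ± 0.181 (SD, n = 2 each). In this order the samples of neighbours were separated between Id2 and Hes1, between Notch2 and Notch1, and between Id3 and Jag1, while the ranges of all other neighbours overlapped. Of all tested genes, 78.0% had a lower control level than Id2, 26.4% than Id3 and 8.33% than Hey1. In si-SMaRT cells the order was Hes1, Id2, Id1, Notch2, Notch3, Id3, Heyl, Notch1, Jag1 and Hey1, in which Notch1 and Jag1, and Jag1 and Hey1, were the only neighbours with separated samples. Id3 stood at position 8 in the control order and at position 6 in the depleted one.

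**Figure D1:**
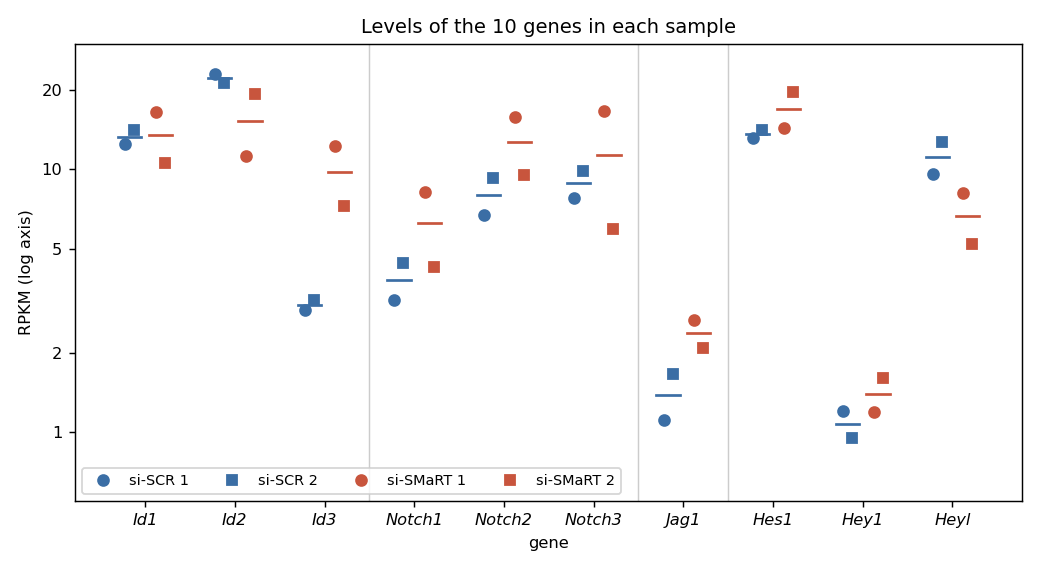
RPKM of the 10 genes in each sample, on a log axis, with points for si-SCR and si-SMaRT samples and a bar at the mean of each group. Id3 lies between 2.91 and 3.20 in si-SCR and between 7.26 and 12.3 in si-SMaRT, while Id1, Hey1, Notch1 and Notch3 have groups that overlap.

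Id3 was the only one of the 10 genes whose level changed past the threshold between si-SMaRT and si-SCR, and it rose. Differences were tested with limma on log2(RPKM + 0.1) over 11086 genes, with p-values adjusted over all of them by the Benjamini-Hochberg method and a threshold of 0.05. Of all genes tested, 0.18% were called higher (20 genes) and 0.325% lower (36 genes), against 1 of 10 members higher and 0 lower. The number of members called was 0 without si-SCR 1 or without si-SCR 2. It was 4 without si-SMaRT 1 (Id3 and Hes1 higher, Heyl and Notch3 lower) and 6 without si-SMaRT 2 (Id3, Jag1, Notch1, Notch2 and Notch3 higher, Id2 lower), where 2908 and 941 of all genes were called. At an unadjusted p under 0.05, Id3 and Jag1 were higher and Heyl was lower, where 3.49% of all genes were higher and 5.6% lower. Both si-SMaRT samples lay above both si-SCR samples for Id3, Notch2, Jag1 and Hes1, which is 4 of 10 members against 20.2% of all genes. Both lay below for Id2 and Heyl, which is 2 of 10 against 20.4%. The remaining 4 overlapped. The median log2 fold change was 0.32 over the 10 members and 0.02 over all genes, with 7 members above 0 and 3 below. RNA of whole cultures was sequenced, so fewer cells of a type and less RNA per cell cannot be told apart.

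**Figure D2:**
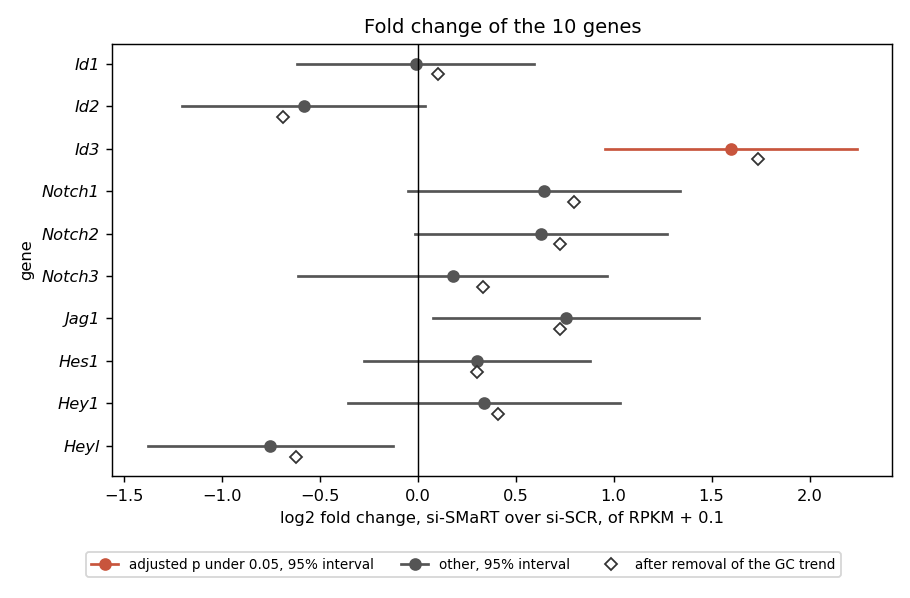
Log2 fold change of si-SMaRT over si-SCR for the 10 genes, on the log2(RPKM + 0.1) scale, with 95% confidence intervals from limma as lines and the fold change after removal of the GC trend as open diamonds. Id3 at 1.60 is the only gene past the adjusted threshold, and the intervals of Jag1 and Heyl leave out 0 without passing it.

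Id3, on the plus strand of chromosome 4 from 136143497 to 136145755, encodes an Id repressor that, like Id1, is induced by BMP signalling in many cell types. Its RPKM was 2.91 and 3.20 in the controls, against 12.3 in si-SMaRT 1 and 7.26 in si-SMaRT 2. These values rest on 66, 81, 249 and 186 reads in the same order. Both depleted samples were thus above both controls, and si-SMaRT 1 was the higher of them. The mean rose from 3.06 ± 0.204 to 9.78 ± 3.58 (SD, n = 2 each), a ratio of 3.20, and the log2 fold change was 1.60 (SE 0.30, 95% confidence interval 0.96 to 2.24, limma adjusted p = 0.0232). With the GC trend removed it was 1.74 (adjusted p = 0.00676), and si-SMaRT 2 minus si-SMaRT 1 shrank from −0.75 to −0.24 on the log2 scale. Left without si-SCR 1 the log2 fold change was 1.53 with an adjusted p of 0.716, and without si-SCR 2 it was 1.67 with an adjusted p of 0.345, so the call was lost without either control although the size was kept. Those 2 fits have 1 control each, which is assumed to vary like the other samples.

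Id1, on the plus strand of chromosome 2 from 152736251 to 152737410, is the member of the family most often used as a readout of BMP signalling. Its RPKM was 12.5 and 14.1 in si-SCR 1 and 2, and 16.5 and 10.5 in si-SMaRT 1 and 2. The depleted samples lay on either side of the controls. The log2 fold change was −0.01 (SE 0.29, 95% confidence interval −0.62 to 0.59, limma adjusted p = 0.995), an interval wide enough to hold a moderate change in either direction. It was 0.11 with the GC trend removed, which turned its sign.

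Id2, on the minus strand of chromosome 12 from 25093799 to 25097140, had the highest level of the 3 Id genes in control cells. It had an RPKM of 23.1 and 21.2 in si-SCR 1 and 2, and of 11.3 and 19.3 in si-SMaRT 1 and 2. Both depleted samples lay below the controls, si-SMaRT 2 by little and si-SMaRT 1 by more. The mean was 22.2 ± 1.36 against 15.3 ± 5.67 (SD, n = 2 each), and the log2 fold change of −0.58 (SE 0.29, 95% confidence interval −1.20 to 0.04, limma adjusted p = 0.579) did not pass the test. With the GC trend removed it was −0.69 (adjusted p = 0.0551). At 45.1% its GC content was the lowest of the 10 genes, where the others ranged from 48.8% to 59.6%.

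The promoters of 6 of the 10 genes (Id2, Id3, Notch1, Notch2, Notch3 and Jag1) were matched to RefSeq sequences of GRCm38.p6, from 250 bases before to 50 after the RefSeq start site. In Notch2, Notch3 and Jag1 that site lies within 124 bases of the 5′ end of the gene given here, which is that of GENCODE M21. In Id3, Id2 and Notch1 it lies 325, 1048 and 12841 bases downstream of that end, inside the gene. The Id3 window starts at 136143572, downstream of the 5′ end at 136143497, and holds 0 bases outside annotated exons. No sequence before the GENCODE 5′ end of Id3 was thus searched. The windows were searched on both strands for 3 motifs that bear on these pathways. TGGGAA, the core that RBPJ binds, was found in 0 of the 6 and in 25.6% of all 32851 promoters. Hes1, Hey1 and Heyl, the repressor genes downstream of Notch, were not among the 6 and so were not searched. CANNTG, the E-box bound by MyoD with its E protein partners, was found in Id2 and Jag1 and in 72.3% of all promoters. GGCGCC, a GC-rich site known for SMAD proteins in Id promoters, was found in Id2 alone of the 6 and in 11.9% of all. The stretch of the Id2 window that lies outside annotated exons is printed because it holds both of the latter, marked in capitals with the SMAD motif first and the E-box second. It lies before the RefSeq start site of Id2 (25096092) and is intronic in the longer GENCODE transcript, which starts at 25097140. It is chr12:25096254-25096342 on the minus strand, written 5′ to 3′. A match describes these letters and no binding was measured at them.
Id2 window: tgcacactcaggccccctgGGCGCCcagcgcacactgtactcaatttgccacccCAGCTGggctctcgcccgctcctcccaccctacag

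The summed level of the 3 Id genes hardly differed between the groups, while its makeup did. The sum was 38.6 and 38.5 RPKM in si-SCR 1 and 2, and 40.1 and 37.1 in si-SMaRT 1 and 2. Id3 held 7.55% and 8.31% of it in the controls, and 30.7% and 19.6% in the depleted samples. Id2 held 60% and 55.1% in the controls, against 28.2% in si-SMaRT 1 and 52.0% in si-SMaRT 2. Id2 was therefore the most abundant of the 3 in both controls and in si-SMaRT 2, whereas in si-SMaRT 1 Id1 led with 41.1%. The ratio of Id3 to Id1, which differ little in GC content (55.6% and 54.7%), was 0.232 and 0.227 in the controls and 0.747 and 0.688 in the depleted samples. Its mean was 0.230 ± 0.00369 against 0.718 ± 0.0412 (SD, n = 2 each), so the samples of a group were close to each other on this ratio, although Id1 and Id3 alone each differed between si-SMaRT 1 and 2 by −0.64 and −0.75 on the log2 scale. With 2 samples in each group no exact test of a share or ratio can pass 0.05, so these are descriptions.

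**Figure D3:**
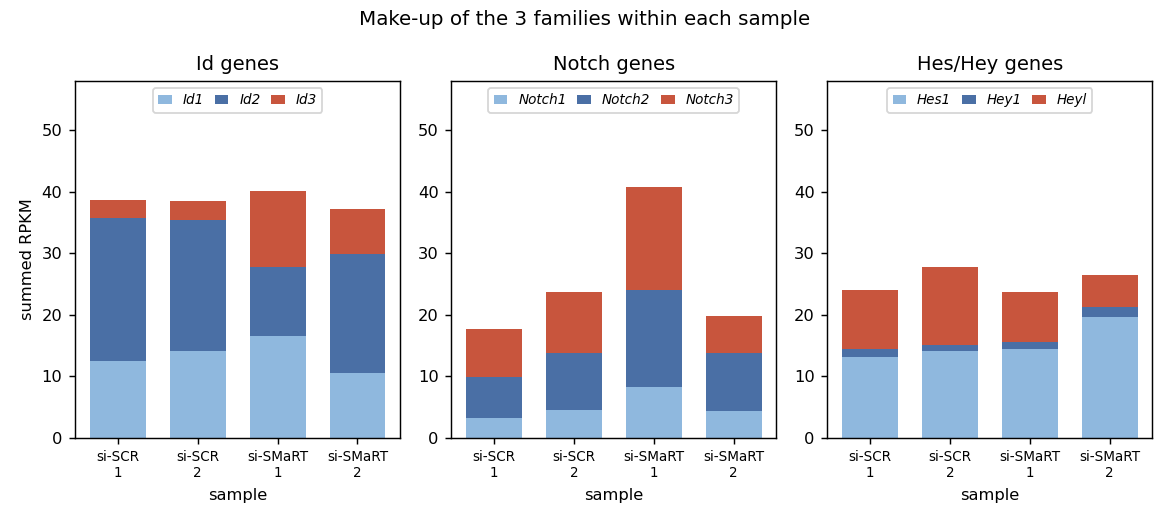
Summed RPKM of the Id genes, the Notch receptors and the Hes and Hey genes, with 1 stacked bar per sample and 1 segment per gene. The Id bars are of like height (37.1 to 40.1) while the Id3 segment takes 7.55% and 8.31% of them in si-SCR and 30.7% and 19.6% in si-SMaRT, and the receptor bar of si-SMaRT 1 is the tallest at 40.8.

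The 3 Notch receptors had higher means in si-SMaRT than in si-SCR, but none passed the test. Notch1, on the minus strand of chromosome 2 from 26457903 to 26516663, had an RPKM of 3.19 and 4.41 in the controls and of 8.23 and 4.27 in si-SMaRT 1 and 2. Only si-SMaRT 1 exceeded both controls. Its log2 fold change was 0.65 (SE 0.33, 95% confidence interval −0.05 to 1.34, limma adjusted p = 0.583). Notch2, on the plus strand of chromosome 3 from 98013527 to 98150361, had 6.73 and 9.31 in the controls and 15.9 and 9.54 in the depleted samples. All 4 values are in RPKM, and si-SMaRT 2 lay just above si-SCR 2. The log2 fold change of Notch2 was 0.63 (SE 0.30, 95% confidence interval −0.01 to 1.27, adjusted p = 0.562).

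Notch3, on the minus strand of chromosome 17 from 32120820 to 32166852, was the member with the widest spread between the depleted samples. It had an RPKM of 7.81 and 9.89 in the controls, 16.7 in si-SMaRT 1 and 5.91 in si-SMaRT 2, so that the depleted samples enclosed the controls. Its log2 fold change was 0.18 (SE 0.37, 95% confidence interval −0.61 to 0.97, limma adjusted p = 0.933). Without si-SMaRT 1 it was −0.56 (adjusted p = 0.0400) and without si-SMaRT 2 it was 0.92 (adjusted p = 0.000866), so its direction depends on which depleted sample is used. Notch3 also had the highest GC content of the 10 genes (59.6%), and its difference of −1.48 between si-SMaRT 2 and 1 on the log2 scale was −0.70 with the GC trend removed, where its log2 fold change was 0.33 (adjusted p = 0.375). The summed RPKM of the receptors was 17.7 and 23.6 in the controls, and 40.8 and 19.7 in si-SMaRT 1 and 2. The ratio of Notch2 to Notch1 varied little, from 1.93 to 2.23 over the 4 samples. That of Notch3 to Notch2 was 1.16 and 1.06 in the controls, 1.05 in si-SMaRT 1 and 0.620 in si-SMaRT 2.

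Jag1, on the minus strand of chromosome 2 from 137081456 to 137116644, encodes a membrane-bound ligand of the receptors. Its RPKM was 1.11 and 1.66 in the controls and 2.68 and 2.10 in si-SMaRT 1 and 2, from 82, 137, 176 and 175 reads. The groups did not overlap, and the mean was 1.39 ± 0.390 against 2.39 ± 0.408 (SD, n = 2 each). The log2 fold change of 0.76 (SE 0.32, 95% confidence interval 0.08 to 1.44) had an unadjusted p of 0.0313 and a limma adjusted p of 0.467, and thus did not pass. Dll1, the gene of a Delta ligand, had 10.7 and 10.3 times the RPKM of Jag1 in the controls and 8.76 and 8.34 times in the depleted samples.

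Of the 3 repressor genes downstream of Notch, none passed the test, and Heyl had the opposite sign of Hes1 and Hey1. Hes1, on the plus strand of chromosome 16 from 30064384 to 30067796, had an RPKM of 13.2 and 14.1 in the controls and of 14.4 and 19.6 in si-SMaRT 1 and 2. The depleted samples were above the controls, si-SMaRT 1 by less than the controls differ. Its log2 fold change was 0.30 (SE 0.27, 95% confidence interval −0.27 to 0.88, limma adjusted p = 0.819). Hey1, on the minus strand of chromosome 3 from 8663359 to 8667256, was the scarcest member, with 1.21 and 0.954 RPKM in the controls and 1.19 and 1.60 in the depleted samples, from 44 to 75 reads. Its groups overlapped, and its log2 fold change was 0.34 (SE 0.33, 95% confidence interval −0.36 to 1.03, adjusted p = 0.836).

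Heyl, on the plus strand of chromosome 4 from 123233556 to 123249875, is a Hey family repressor. It had an RPKM of 9.58 and 12.7 in the controls and of 8.11 and 5.22 in si-SMaRT 1 and 2. All 4 values were apart by group, with si-SMaRT 2 the lowest. The mean was 11.1 ± 2.20 against 6.66 ± 2.04 (SD, n = 2 each), and the log2 fold change was −0.75 (SE 0.30, 95% confidence interval −1.38 to −0.13, unadjusted p = 0.0213, limma adjusted p = 0.395). The ratio of Hes1 to Heyl was 1.37 and 1.11 in the controls, 1.78 in si-SMaRT 1 and 3.76 in si-SMaRT 2. The sum of the 3 genes stayed within 23.7 to 27.8 RPKM in the 4 samples.

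The members are richer in GC than most genes, with a median of 54.2% against 49.5% over all tested genes, and 7 of the 10 were higher in si-SMaRT 1 than in si-SMaRT 2. The exceptions were Id2, Hes1 and Hey1, whose GC contents were 45.1%, 50.7% and 52.6%. With a loess fit of each sample on GC content subtracted, 2 of 10 members were called higher and 0 lower, against 1.71% and 2.45% of 10400 genes. These 2 were Id3 and Notch1, which had a log2 fold change of 0.80 and a limma adjusted p of 0.0497 and whose groups no longer overlapped. In the same fit Hes1 had 0.30 (adjusted p = 0.315), Hey1 0.41 (adjusted p = 0.369), Notch2 0.73 (adjusted p = 0.0762), Heyl −0.62 (adjusted p = 0.0646) and Jag1 0.73 (adjusted p = 0.132). The part of GC content in each of these differences was not tested.

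**Figure D4:**
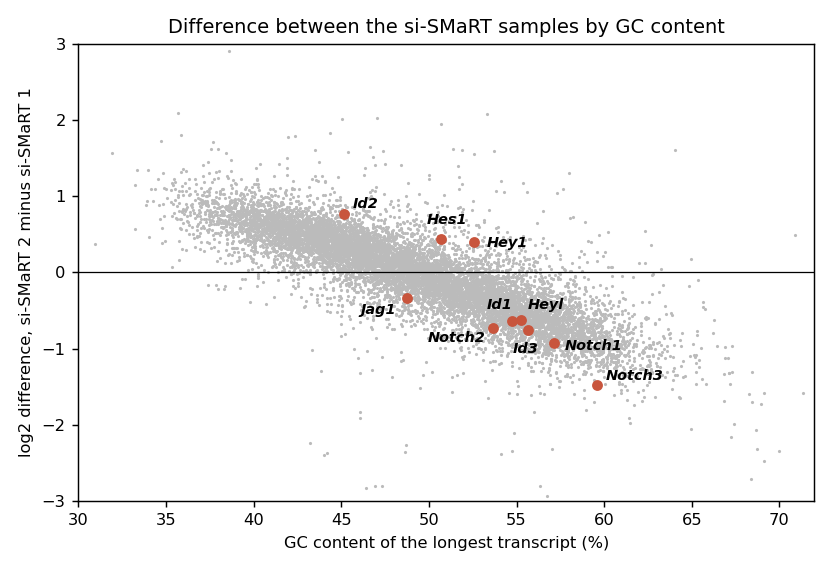
Values of si-SMaRT 2 minus those of si-SMaRT 1, on the log2(RPKM + 0.1) scale, against the GC content of the longest transcript (percent), for all tested genes as a background and the 10 members as labelled points. The background falls from left to right (Spearman's rho −0.847), and Id2 lies at 45.1% GC and 0.77 and Notch3 at 59.6% GC and −1.48. With the GC trend removed, the difference is above 0 for Hey1 (0.63), Hes1 (0.50) and Id2 (0.40). It is then below 0 for the other members, from −0.16 for Heyl to −0.41 for Jag1 and Notch2 and −0.70 for Notch3. A few genes lie outside the axes.

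In 6 wider lists of Notch pathway genes, no gene passed the test in either direction. Of all genes tested, 0.18% passed as higher and 0.325% as lower, so a count of 0 in lists of this size is near that share. Among the ligands, 3 of 8 genes had a row and were tested. Dll1 had an RPKM of 11.9 and 17.2 in the controls and of 23.4 and 17.5 in si-SMaRT 1 and 2 (log2 fold change 0.50, limma adjusted p = 0.641), and Jag2 had −0.56 (adjusted p = 0.727), while Dll3 and Dll4 were not analysed here. The receptors tested were the 3 members, with a median log2 fold change of 0.63, and Notch4 was not analysed here. Of the genes that cut Notch, 9 of 10 were tested, with 6 above 0 and 3 below and a median of 0.08. Their extremes were 0.33 for the convertase gene Furin, 0.28 for the protease gene Adam10, and −0.56 and −0.50 for the γ-secretase subunit genes Psenen and Psen2 (adjusted p = 0.842, 0.844, 0.568 and 0.686). Of the genes that modify and sort the receptors and ligands, 14 of 17 were tested, with 4 above 0, 10 below and a median of −0.07. The ubiquitin ligase genes of this list lay at both ends, with 0.45 for Mib1, −0.49 for Mib2 and −0.51 for Dtx2, beside 0.37 for the fucosyltransferase gene Pofut1. None of these 4 passed.

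Of the 14 tested genes of the nuclear complex, 12 had a log2 fold change above 0, and the median was 0.17 against 0.02 over all genes. Rbpj, the DNA-binding subunit, had an RPKM of 15.9 and 18.7 in the controls and of 22.5 and 27.1 in the depleted samples, which did not overlap (log2 fold change 0.51, SE 0.27, limma adjusted p = 0.596). The coactivator Maml2 had 0.69 (adjusted p = 0.572), but its row is joined with that of another gene and is uncertain. The lowest were Ctbp1 at −0.09 and Snw1 at −0.07. In the list of Hes and Hey genes and Nrarp, 4 of 9 genes were tested, namely Hes1, Hey1, Heyl and Hes6. Hes6, which is known to counter Hes1 and to rise as myoblasts differentiate, had an RPKM of 148 and 145 in the controls and of 114 and 67.9 in si-SMaRT 1 and 2. Its groups did not overlap, yet its log2 fold change of −0.73 (SE 0.29, unadjusted p = 0.0225) had an adjusted p of 0.403 and did not pass. Hes5, Hey2 and Nrarp were not analysed here.

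Of the partners and inducers of the Id proteins, 1 gene passed the test, the BMP ligand gene Bmp4. The genes of the E proteins that Id proteins bind, Tcf3, Tcf4 and Tcf12, had log2 fold changes of 0.00, 0.34 and 0.27, and none passed. Bmp4 had an RPKM of 0.213 and 0.127 in the controls and of 0.916 and 0.911 in si-SMaRT 1 and 2, from 6, 4, 23 and 29 reads. The depleted samples differ little from each other, and both lie well above the controls. It rose by 1.93 on the log2(RPKM + 0.1) scale (SE 0.37, limma adjusted p = 0.0232). The ratio of the mean RPKM was 5.37, on a level so low that the log2 fold change was 0.71 at a pseudocount of 1 and 2.40 at 0.01. With the GC trend removed it was 1.99 (adjusted p = 0.0173). As for Id3, the call was lost without si-SCR 1 (2.16, adjusted p = 0.0962) or without si-SCR 2 (1.69, adjusted p = 0.601).

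The BMP antagonist genes in the same list had values of both signs. Grem1, which encodes gremlin, had an RPKM of 2.04 and 1.77 in the controls and of 4.44 and 5.39 in si-SMaRT 1 and 2. Its log2 fold change of 1.32 (SE 0.29, limma adjusted p = 0.0542) fell just short of the threshold, and with the GC trend removed it passed at 1.21 (adjusted p = 0.0123). Chrd, which encodes chordin, had 3.72 and 4.21 RPKM in the controls and 1.85 and 1.52 in the depleted samples. Its log2 fold change was −1.19 (SE 0.30, adjusted p = 0.0976), and −1.09 with the trend removed (adjusted p = 0.0162). The ligand gene Gdf5 had −0.94 (adjusted p = 0.36). In all, 8 of 15 genes of the ligand and antagonist list were tested, 4 with values above 0 and 4 below. Among those below was Bmp1 at −0.06, which encodes a protease and no BMP ligand.

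All 12 tested genes in the list of BMP receptors and SMADs had a log2 fold change above 0, with a median of 0.26. The list also holds the inhibitory Smad6 and Smad7 (0.32 and 0.23) and the ubiquitin ligase genes Smurf1 and Smurf2 (0.20 and 0.17). In 8 of the 12 both depleted samples lay above the controls, against 20.2% of all genes, but none passed the test. The largest were the receptor genes Bmpr1b at 0.64 (limma adjusted p = 0.606) and Bmpr2 at 0.47 (adjusted p = 0.691). Over the 73 tested genes of all 10 lists, members included, the median log2 fold change was 0.17 and 2 genes passed, Id3 and Bmp4. Of these, Bmp4 entered the test only through the depleted samples. No gene of these lists passed without si-SCR 1 or without si-SCR 2. More of them passed without si-SMaRT 1 or without si-SMaRT 2, where many more of all genes were called too.

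**Figure D5:**
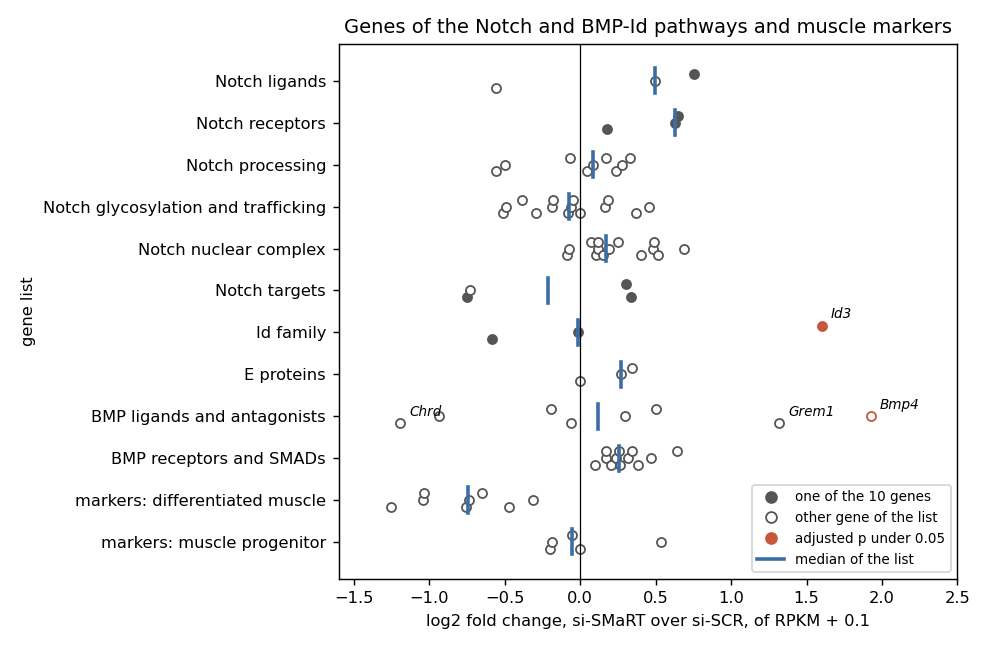
Log2 fold change of si-SMaRT over si-SCR for each tested gene of the 10 wider lists and of 2 marker lists, with 1 row per list and a bar at its median, where filled points are the 10 genes and red marks an adjusted p under 0.05. Id3 at 1.60 and Bmp4 at 1.93 are the genes past the adjusted threshold, and Bmp4 entered the test only through the depleted samples. The 12 genes in the row of BMP receptors and SMADs lie above 0, and most nuclear complex genes do too.

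Markers of muscle differentiation had lower values in the same depleted samples. The 8 tested genes of differentiated muscle all had a log2 fold change below 0, with a median of −0.75. In 7 of them both depleted samples lay below the controls, against 20.4% of all genes, 5 had an unadjusted p under 0.05, against 5.6% of all genes, and 0 passed the adjusted threshold. Of the 8 muscle progenitor markers, 5 were tested and 0 passed. The summed RPKM of those with a row was 300 to 364 in si-SCR and 292 to 407 in si-SMaRT, and Pax7 and Calcr were not analysed here. Myod1, which encodes the factor that the Id proteins hold in check, had an RPKM of 54.8 and 70.1 in the controls and of 95.9 and 57.7 in si-SMaRT 1 and 2 (log2 fold change 0.26, limma adjusted p = 0.857). Of 6 adipocyte markers 3 were tested. Their sum was 3.14 to 3.28 RPKM in si-SCR and 5.17 to 5.64 in si-SMaRT. Only Lpl passed (log2 fold change 1.56, limma adjusted p = 0.0375), while Cebpa had 0.68 (adjusted p = 0.608). Pparg had the opposite sign at −0.12 (adjusted p = 0.952), with groups that overlapped. The defining genes Adipoq, Fabp4 and Plin1 were not analysed here. Of 6 osteoblast markers only Runx2 had a row, at 0.993 to 1.17 RPKM in si-SCR and 1.44 to 1.54 in si-SMaRT, and none of 6 endothelial markers had one. The part of these markers in the rise of Id3 and Bmp4 was not tested.

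The genes most like Id3 over the 4 samples, by Euclidean distance of their log2(RPKM + 0.1) values after centring each gene on its own mean, were Aldh3a1, Nid2 and Prelp, at distances of 0.276, 0.310 and 0.322. Aldh3a1, an aldehyde dehydrogenase gene, had an RPKM of 1.18 and 1.02 in the controls and of 4.15 and 2.81 in si-SMaRT 1 and 2. Nid2, which encodes a basement membrane protein, had 14.1 and 17.1 in the controls and 47.9 and 32.6 in the depleted samples. Prelp, a proteoglycan gene of the extracellular matrix, had 0.350 and 0.509 in the controls and 2.03 and 1.39 in the depleted samples. Like Id3, each was higher in si-SMaRT 1 than in si-SMaRT 2 and higher in both than in the controls. Likeness over 4 samples of 2 groups describes these samples and carries no test.

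In the pull-down, the deposited lists held 345 peaks for lnc-SMaRT and 336 for LacZ. None of them overlapped any of the 10 genes on the same strand by 1 base or more, nor any of the 68 genes of the wider lists with a position. The share of all genes with a peak was not counted, so the absence of peaks is not a result particular to these genes. Each list comes from 1 library, and regions below the peak caller's threshold are not in it.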

How the data were processed

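RNA-Seq of 4 samples was analysed, with 2 si-SCR and 2 si-SMaRT samples, and peaks of 1 lnc-SMaRT and 1 LacZ pull-down. Reads of total RNA were trimmed by the authors (Trimmomatic), cleared of rRNA and tRNA (Bowtie 2), aligned to GRCm38 using TopHat2 and Ensembl 77, and cleared of mitochondrial reads. Gene counts came from htseq-count (intersection-strict), whose strand setting is not given in the sources used here. The authors removed genes with a CPM under 1 in at least 2 samples, normalized by TMM and deposited RPKM values from edgeR. The authors called peaks using Piranha on 200-base bins and deposited a p-value for each. The input served as the covariate for LacZ. For lnc-SMaRT the methods describe peaks against the input and against LacZ, and which of them the deposited list holds is not given in the sources used here.

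The rows of the 10 members were taken by symbol. The members, the lists and the tests were chosen with earlier results of these data known. Because the deposited unit is RPKM and not counts, the main test was a two-sided limma fit (version 3.58.1, R 4.3.3, lmFit and eBayes, trended prior). It used log2(RPKM + 0.1) of all genes whose mean RPKM reached 0.5, and Benjamini-Hochberg adjustment over these. Fold changes on this scale understate the change of low genes. Reads behind each RPKM were recovered from the steps between the values of a gene in 11642 of 11642 rows. The gene model set the factor for 6305 of them, while the others, Id2, Notch2 and Notch3 among them, have the smallest whole length and thus lower limits of reads. Positions and GC content (longest transcript) came from GENCODE M21, and promoters from RefSeq on GRCm38.p6. The GC trend of each sample was removed with loess (span 0.3) over 10400 genes. Reads carry no molecular identifiers, so depth covers counting error only. Named were all members, the genes past the threshold and the 2 largest rises and falls of each of 10 lists, lnc-SMaRT, and the 3 genes most like the member with the largest change. Any other gene in the text is a marker or comparison gene chosen after its values were seen. The alternatives were 2 other pseudocounts, 2 other filters on low values, quantile normalization, no trend in the prior variance, a replicate block, GC removal, both together, voom on recovered reads and each sample left out. A crossed block was added after seeing the data. The main fit was tested on simulated data, with the spread between samples set by a dispersion of 0.02 or 0.05. Of 4-fold changes, 97.5% and 95% were recovered at these settings, and of 2-fold changes 77.5% and 0%. A gene that did not pass may therefore still have changed by 2-fold. Other steps ran in Python 3.11.15 (scipy 1.17.1, pandas 2.3.3, numpy 2.4.6), with figures by matplotlib 3.10.9. Sequences of proteins were not used here. The input library was not analysed here.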

Additional observations from a re-analysis of the deposited data

How the results depend on the processing

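Of the 10 members, Id3 was called in 11 of 11 alternatives that keep every sample, with a log2 fold change of 1.37 to 1.74 (limma adjusted p at most 0.0474), and in 13 of all 15. The exceptions left out si-SCR 1 or si-SCR 2, and the cause was not tested. The number of genes called was 56. It was 37 with quantile normalization, 107 with voom on recovered reads, 433 with the GC trend removed, 291 with a replicate block and the GC trend removed, and 24 to 2908 with each sample left out, where a lone sample is assumed to vary like the others. Members called were 2 with the GC trend removed (Id3 and Notch1) and 0 to 6 with each sample left out, namely 0 without si-SCR 1 or si-SCR 2, 4 without si-SMaRT 1 and 6 without si-SMaRT 2. Called genes of the 10 lists were 2, and were 1 at a mean RPKM of at least 5, where Bmp4 was not tested, 5 with the GC trend removed, 4 with the block and GC removal, 4 with voom and 0 to 25 with each sample left out. The replicate numbers were not used to pair the samples in the main fit, since the labels do not say that a number marks a shared day. The differences between replicates of the 2 groups had a correlation of −0.362 across 11086 genes. It cannot settle the pairing, because these differences track GC content in opposite directions in the 2 groups. The replicate block gave 96 called genes, 1 of them a member. A crossed block, added after seeing the data, gave 487 called genes, 1 member and 4 genes of the lists.

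The sign of a log2 fold change turned only in genes that were not called with all samples kept. Id1 was at 0.0039 with quantile normalization, at 0.11 with the GC trend removed, at 0.11 with the block and GC removal, and at −0.33 to 0.31 with each sample left out. Snw1 was at 0.015 with quantile normalization, and Ctbp1 was at 0.057 with the GC trend removed and at 0.057 with the block and GC removal. With each sample left out, the range was −0.56 to 0.92 for Notch3, −0.24 to 0.088 for Snw1, −1.24 to 0.12 for Jag2, −1.18 to 0.19 for Mib2, −0.38 to 0.21 for Ctbp1 and −0.14 to 0.81 for Furin. The cause was not tested.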
